A study of Homo sapiens with 4 samples.

Results

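The genes described here encode positive acute-phase proteins, plasma proteins that the liver releases in larger amounts during inflammation. They are SAA1, SAA2 and SAA4 of the serum amyloid A family, CRP, ORM1, ORM2, HP, LBP, LCN2 and SERPINA3. These 10 symbols were selected on earlier results of the same contrast, in which SAA1 and SAA4 stood among the genes with the largest differences, and were completed with other well known proteins of the response. All 10 were found among the 18806 gene symbols of the deposited table. Since the contrast itself guided the choice, the values of the 10 genes are given as a description. They were part of the fit across all genes, but no p is given for them and their calls support nothing.

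RNA was measured in Huh7, a human liver cancer cell line, in cells grown from 1 clone that stably expressed Cas9 and then received a lentiviral guide RNA under hygromycin B selection. The sgNS group received a non-targeting guide and the METTL16 KO group a guide against METTL16, an RNA methyltransferase. Each group had 2 libraries, which the study calls biological replicates. The labels do not say which guide sequence was used or whether the replicates were transduced separately, so that SDs, standard errors and p-values measure the spread between these libraries, which may be technical. The labels call the second group a knockdown and record the sgNS cells as wild type, although both groups carry Cas9 and a guide. Values are TPM, a relative abundance of transcripts that is corrected for their length, sums to 1000000 in each library and keeps no read counts, so the depth is unknown. METTL16 (chromosome 17, 2405562 to 2511891, minus strand, GRCh38) was at 26.29 and 25.14 TPM in the sgNS libraries, against 17.62 and 18.75 TPM in those of METTL16 KO, or -0.50 on the log2 scale with a standard error of 0.062 and, by limma, an adjusted p of 2.4e-05.

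In the acute-phase response, interleukin-6 (IL-6) and related cytokines signal through the shared receptor chain gp130, JAK kinases and the transcription factor STAT3, while IL-1 and TNF signal through NF-kB. C/EBP factors, which both routes induce or activate, join them at the promoters of hepatocyte genes. Positive acute-phase proteins bind microbes, lipids, iron carriers, hemoglobin or proteases in plasma, and negative ones, such as albumin and transferrin, are made in smaller amounts during the response. Serum amyloid A and C-reactive protein are the members with the widest range in human plasma.

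The sequences of the genes matter for reading their values, because several are close copies. SAA1, SAA2 and SAA4 lie within 1 cluster on chromosome 11 of GRCh38 (GENCODE release 44), SAA4 from 18231355 to 18236802 and SAA2 from 18239223 to 18248668 on the minus strand, and SAA1 from 18266260 to 18269977 on the plus strand. The coding sequences of SAA1 and SAA2 are 366 bases each, for 122 residues, and differed at 11 positions (97% identity). SAA4, which encodes 130 residues, differed from SAA1 at 99 of 366 aligned bases (73% identity). The opening coding bases, 1 to 120 from the start codon, are shown because they show which members could exchange reads, with capitals where a base differs from SAA1.
SAA1: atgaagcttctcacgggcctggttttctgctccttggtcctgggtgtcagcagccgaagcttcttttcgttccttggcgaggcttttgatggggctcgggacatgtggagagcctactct
SAA2: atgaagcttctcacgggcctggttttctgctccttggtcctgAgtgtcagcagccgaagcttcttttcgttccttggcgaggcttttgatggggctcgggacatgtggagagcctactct
SAA4: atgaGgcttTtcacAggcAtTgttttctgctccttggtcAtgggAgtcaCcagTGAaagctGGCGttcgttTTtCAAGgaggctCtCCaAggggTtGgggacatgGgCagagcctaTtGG
In this stretch SAA2 differed from SAA1 at 1 position and SAA4 at 32 positions. Windows of 1 read length in the representative transcript of a gene were taken as single reads without their mates. They were searched, here and below, in all GENCODE transcripts of the other gene. Of the SAA1 windows, 20.6% also occurred in SAA2, and 0 of the 530 windows of SAA4 occurred in SAA1. SAA4 shared 71.5% of its windows with SAA2-SAA4, a transcript that runs from SAA2 into SAA4 and has a row of its own in the table.

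The serum amyloid A genes were close to absent from the sgNS libraries and present in both METTL16 KO libraries. SAA4, a lipoprotein-bound member that is usually made constitutively, was listed at 0.1 and 0.29 TPM in the sgNS libraries, against 52.31 and 61.19 TPM in those of METTL16 KO. SAA1, a main inducible form, was at 0 and 0.26 TPM in the sgNS libraries, against 17.27 and 16.29 TPM in those of METTL16 KO. SAA2, the other inducible form, was at 0.14 and 0.07 TPM in the sgNS libraries, against 5.35 and 5.63 TPM in those of METTL16 KO. Each of the METTL16 KO values lay above each of the sgNS values of the same gene, as in 56.8% of all genes tested. Whether more cells held these transcripts or each cell held more of them cannot be told apart in bulk RNA.

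The log2 fold changes, taken throughout as the difference of mean log2(TPM + 0.1), were 7.66 for SAA4, 6.47 for SAA1 and 4.79 for SAA2. With values this near 0 in sgNS, these figures depend on the pseudocount. With a pseudocount of 1 they were 5.60, 3.98 and 2.55, and with 0.01 they were 8.28, 8.34 and 5.65, so that SAA4 and SAA1 changed places. For SAA1 the value was 5.55 without sgNS replicate 1, where it was listed at 0, and 7.40 without sgNS replicate 2. SAA4 was 3.03 and 3.76 times the level of SAA1 in the METTL16 KO libraries, on the TPM scale. The row SAA2-SAA4 was at 0.49 and 0 TPM in the sgNS libraries, against 6.04 and 8.31 TPM in those of METTL16 KO. Summed over SAA1, SAA2, SAA4 and SAA2-SAA4, which depends little on how shared reads were split, the level was 0.73 and 0.62 TPM in sgNS and 81.0 and 91.4 TPM in METTL16 KO.

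SERPINA3 (chromosome 14, 94612384 to 94624055, plus strand) encodes alpha-1-antichymotrypsin, an inhibitor of neutrophil cathepsin G and mast cell chymase. It was at 8.50 and 7.89 TPM in the sgNS libraries, against 153.43 and 143.39 TPM in those of METTL16 KO, or 8.20 ± 0.43 against 148 ± 7.1 TPM (SD, n = 2 per group). The difference, 18.1-fold, was far larger than the spread within either group, and its log2 fold change of 4.16 stood at place 21 among the 11971 genes tested. HP (chromosome 16, 72054505 to 72061055, plus strand) encodes haptoglobin, which binds free hemoglobin. It was at 55.95 and 55.89 TPM in the sgNS libraries, against 189.38 and 188.43 TPM in those of METTL16 KO, a ratio of 3.38 (log2 fold change 1.75). The groups were well apart for this gene too.

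HP has a close neighbour and copy, HPR (haptoglobin-related protein), whose coding sequence matched that of HP at 95.6% of 1041 aligned bases. Of the windows of the HP transcript, 15.9% also occurred in HPR. HPR was at 29.93 and 31.26 TPM in the sgNS libraries, against 42.15 and 42.08 TPM in those of METTL16 KO. The ratio of HP to HPR was thus 1.87 and 1.79 in sgNS and 4.49 and 4.48 in METTL16 KO, and the sum of the pair was 2.67 times higher in METTL16 KO.

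ORM1 and ORM2 encode the 2 forms of orosomucoid (alpha-1-acid glycoprotein), a plasma carrier of basic drugs and lipids. They lie next to each other on the plus strand of chromosome 9, ORM1 from 114323098 to 114326479 and ORM2 from 114329869 to 114333251. ORM1 was at 624.17 and 625.31 TPM in the sgNS libraries, against 1219.40 and 1236.07 TPM in those of METTL16 KO. ORM2 was at 259.10 and 256.04 TPM in the sgNS libraries, against 464.01 and 455.05 TPM in those of METTL16 KO. For both genes the 2 METTL16 KO libraries lay above the 2 sgNS libraries, as they did in 56.8% of all genes tested. The ratios of the means were 1.97 for ORM1 and 1.78 for ORM2 (log2 fold changes 0.97 and 0.83), the smallest among the members tested. The opening coding bases, 1 to 120, are shown because a single read that lies within them fits both copies, although its mate in a read pair may not.
ORM1: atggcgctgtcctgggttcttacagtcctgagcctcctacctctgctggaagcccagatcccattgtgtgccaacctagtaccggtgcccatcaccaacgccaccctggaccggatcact
ORM2: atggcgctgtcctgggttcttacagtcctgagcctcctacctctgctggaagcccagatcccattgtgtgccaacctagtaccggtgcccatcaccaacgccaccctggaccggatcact
The pair had 0 differing positions in this stretch and 31 over the whole 603 coding bases (94.9% identity), and 35.2% of the windows of ORM1 also occurred in ORM2. Their summed level, which depends little on how shared reads were split, was 883 and 881 TPM in sgNS and 1683 and 1691 TPM in METTL16 KO, 1.91 times higher.

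LBP and LCN2 act in defence against bacteria. LBP (chromosome 20, 38346482 to 38377013, plus strand) encodes the lipopolysaccharide-binding protein, which hands lipopolysaccharide to CD14. It was at 1.46 and 1.45 TPM in the sgNS libraries, against 15.57 and 16.75 TPM in those of METTL16 KO (ratio of means 11.1, log2 fold change 3.39). LCN2 (chromosome 9, 128149071 to 128153453, plus strand) encodes lipocalin-2, which binds bacterial iron carriers. It was at 1.03 and 1.78 TPM in the sgNS libraries, against 5.22 and 6.24 TPM in those of METTL16 KO (ratio 4.08, log2 fold change 1.99), with the largest spread within sgNS, relative to the mean, of the members at or above 1 TPM there. Without sgNS replicate 1 the log2 fold change of LCN2 was 1.63, and without sgNS replicate 2 it was 2.36.

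CRP (chromosome 1, 159712289 to 159714589, minus strand), which encodes C-reactive protein, the pentraxin used as a clinical marker of inflammation, was the exception. Both sgNS libraries and METTL16 KO replicate 1 had it at 0, and METTL16 KO replicate 2 at 0.09 TPM. The groups overlapped and the gene did not reach the mean of 1 TPM required for testing. Its relative APCS (serum amyloid P component) was listed at 0 in all 4 libraries.

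**Figure D1:**
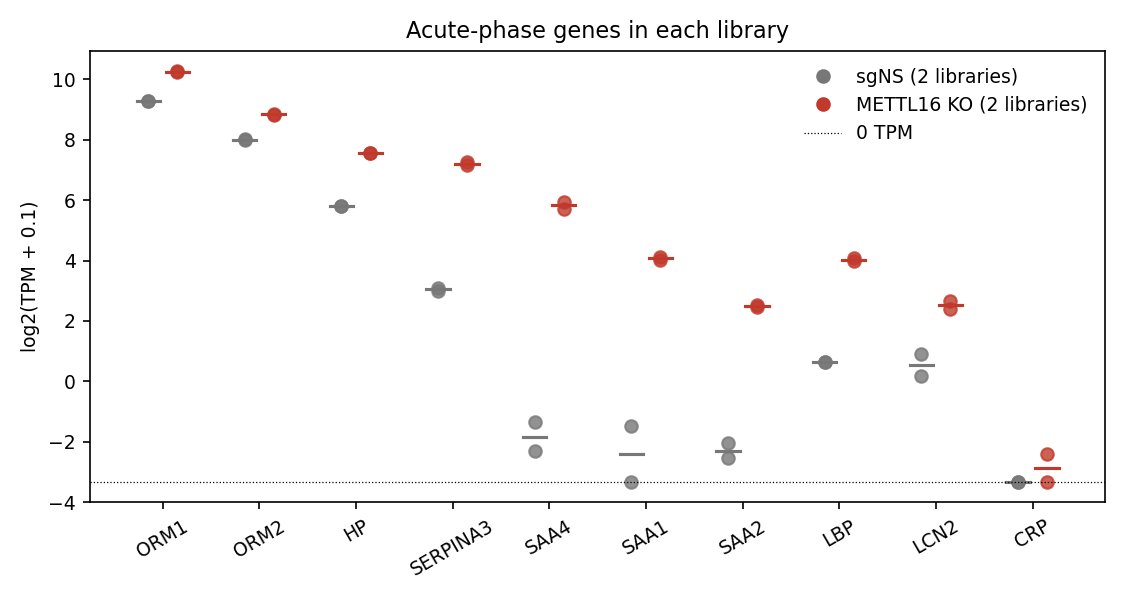
Levels of the 10 acute-phase genes as log2(TPM + 0.1), with 1 point per library and a short line at the mean of each group (n = 2). The METTL16 KO points lie above the sgNS points for every gene except CRP, which is listed at 0 TPM (dotted line) in 3 of its 4 libraries. Among all genes tested, 56.8% also had both METTL16 KO libraries above both sgNS libraries.

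Ordered by level, which TPM allows because it is per length, the members in sgNS ran from ORM1, ORM2, HP and SERPINA3 to LBP and LCN2, and then to SAA4, SAA1, SAA2 and CRP. LBP and LCN2 overlapped there, as did SAA4 with SAA1 and SAA1 with SAA2. In METTL16 KO the order was ORM1, ORM2, HP, SERPINA3, SAA4, SAA1, LBP, LCN2, SAA2 and CRP, with overlap between SAA1 and LBP and between LCN2 and SAA2. The summed level of the 10 genes was 950 and 949 TPM in sgNS and 2122 and 2129 TPM in METTL16 KO. ORM1 and ORM2 together made up 92.9% of that sum in each sgNS library, and 79.3% and 79.4% in the METTL16 KO libraries. SERPINA3 made up 0.894% and 0.831% in sgNS and 7.23% and 6.73% in METTL16 KO. Without the orosomucoid genes, the other 8 members summed to 67.2 and 67.6 TPM in sgNS and to 439 and 438 TPM in METTL16 KO.

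Across the whole table, 11971 genes had a mean of at least 1 TPM and were tested. A gene was called when its adjusted p from limma was under 0.05 and its level differed at least 2-fold. By this rule 922 genes (7.70% of those tested) were higher in METTL16 KO and 451 (3.77%) were lower. Of the 10 members 9 were tested, and SAA1, SAA2 and SAA4 reached 1 TPM through the METTL16 KO libraries alone, so that they had to differ. Counted by the same rule as a description, 7 of the 9 were higher, 0 were lower, and ORM1 and ORM2 lay just under 2-fold. Both METTL16 KO libraries lay above both sgNS libraries in 9 of 9 members and in 56.8% of all genes tested. These counts are given beside their background only, since the members were chosen from this contrast. The median log2 fold change was 0.16 over all genes tested, and 1.87 over the 6 members with a sgNS mean of at least 1 TPM. As TPM are shares of a fixed total, the choice of scaling can shift all genes. With median-ratio scaling the median of all genes was -0.0016 and with quantile normalization 0.0097, and the calls split into 672 higher and 657 lower genes with the former and 586 and 698 with the latter. Under these scalings ORM1, the member nearest to the 2-fold limit, was at 0.81 and 0.99, and ORM2 at 0.67 and 0.77.

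**Figure D2:**
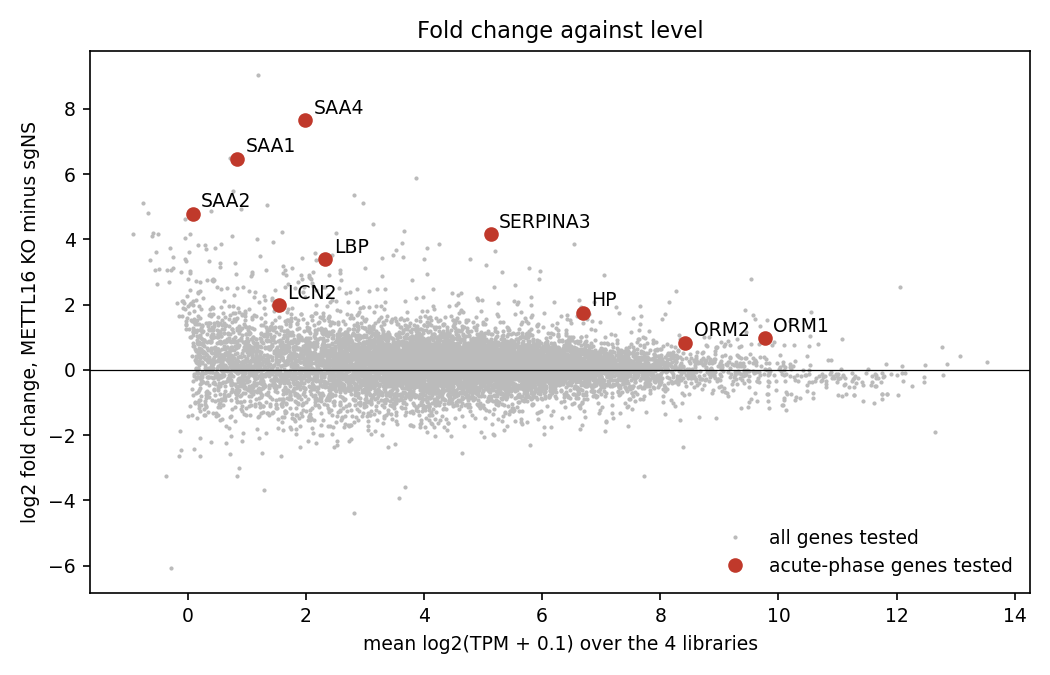
Log2 fold change (METTL16 KO minus sgNS) against mean log2(TPM + 0.1) over the 4 libraries for the 11971 genes tested (grey) and the 9 acute-phase genes among them (red). SAA4 at 7.66 and SAA1 at 6.47 lie near the top of the plot at low mean levels, and ORM1 and ORM2 lie at high levels with 0.97 and 0.83.

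The promoters of 5 members were found in the RefSeq promoter table (GRCh38.p14), namely SAA4, CRP, ORM1, LCN2 and SERPINA3. The 180 bases before the start of 4 of them, written from 5′ to 3′ on the strand of the gene, are shown because these genes were higher together in METTL16 KO. The starts are those of RefSeq, which differ from the GENCODE gene positions given above for LCN2 and SERPINA3. The RefSeq start of LCN2 lies downstream of the first base of the GENCODE gene, so that the whole LCN2 stretch falls inside the gene as located by GENCODE, and the last bases of the SERPINA3 stretch do too. Capitals mark matches to 4 motifs searched on both strands, and a stretch that ORM1 and SERPINA3 share.
SAA4, chr11:18236803-18236982, minus strand: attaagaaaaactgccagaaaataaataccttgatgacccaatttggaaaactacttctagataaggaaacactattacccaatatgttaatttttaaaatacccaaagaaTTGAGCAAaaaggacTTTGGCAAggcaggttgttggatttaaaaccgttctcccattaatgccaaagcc
LCN2, chr9:128149273-128149452, plus strand: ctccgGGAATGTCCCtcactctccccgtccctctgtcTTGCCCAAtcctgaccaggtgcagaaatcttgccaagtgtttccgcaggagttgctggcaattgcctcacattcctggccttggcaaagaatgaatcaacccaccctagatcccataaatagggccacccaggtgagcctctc
ORM1, chr9:114322918-114323097, plus strand: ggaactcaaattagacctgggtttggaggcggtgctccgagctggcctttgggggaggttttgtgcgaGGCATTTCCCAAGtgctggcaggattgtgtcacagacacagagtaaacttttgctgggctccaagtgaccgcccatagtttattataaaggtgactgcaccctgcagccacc
SERPINA3, chr14:94612211-94612390, plus strand: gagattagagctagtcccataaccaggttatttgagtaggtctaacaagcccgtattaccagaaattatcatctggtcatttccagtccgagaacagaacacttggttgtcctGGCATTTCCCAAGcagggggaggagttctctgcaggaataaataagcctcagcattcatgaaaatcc
The motifs were CTGGGAA (the core of the element through which IL-6 acts on many acute-phase genes), TTCNNNGAA (STAT), TTGCNNAA (a C/EBP core) and the kappa B motif of NF-kB. They were searched in the 250 bases before each start, and 9.15%, 6.57%, 9.05% and 5.21% of the 35116 promoters in the table held them. SAA4 had 3 matches to the C/EBP core, of which 2 lie in the part shown, at 69 to 62 and 54 to 47 bases before the start, and the third at 236 to 229. LCN2 had 1 match to the C/EBP core, at 143 to 136, and 1 to the kappa B motif, at 175 to 166, both before the RefSeq start and downstream of the GENCODE start. No match overlapped another. In CRP, ORM1 and SERPINA3 the search for the 4 motifs gave no match. Only 1 start per gene was searched, the first listed.

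In a comparison of the 10 pairs among these 5 promoters, the longest run of identical bases was GGCATTTCCCAAG, in ORM1 at 112 to 100 and in SERPINA3 at 67 to 55 bases before the start. It is 13 bases long, against 9 for the next pair, and of the 35116 promoters 2 (0.0057%) held it on either strand, which are these. A match of letters is a description of the sequence and shows no binding.

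The lists used from here on were written with earlier results of these data known, so their counts are a description set beside the background. The other positive acute-phase genes were read from a list of 28, of which 25 had a row and 21 were tested. Of these 11 rose, 0 fell and 10 were not called, beside 7.70% higher and 3.77% lower among all genes tested, and the median on the log2 scale was 1.01. With either median-ratio scaling or quantile normalization 9 rose. The 3 fibrinogen chains, the substrate of clotting, rose together. FGA went from 421.86 and 427.83 TPM to 1379.69 and 1345.29 TPM, FGB from 357.76 and 369.58 to 1330.57 and 1276.46 TPM, and FGG from 683.36 and 713.21 to 1970.10 and 1968.98 TPM. On the log2 scale they differed by 1.68, 1.84 and 1.50, each with an adjusted p of at most 1.7e-11 by limma. HAMP, which encodes the iron hormone hepcidin, rose from 22.83 and 25.61 to 350.61 and 360.39 TPM (log2 fold change 3.87, standard error 0.053, adjusted p of 2.1e-12 from limma).

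IL1RN, which encodes the IL-1 receptor antagonist, rose from 0.54 and 0.66 to 13.39 and 12.65 TPM (log2 fold change 4.23). The chains of the complement inhibitor C4b-binding protein also rose, C4BPB with a log2 fold change of 3.0 and C4BPA with 1.06. So did SOD2, the mitochondrial superoxide dismutase, with 1.54, HPX, which encodes the heme carrier hemopexin, with 1.42, VNN1, a pantetheinase, with 1.45 and FGL1, a secreted relative of fibrinogen, with 1.01. IL1RN and VNN1 had sgNS means under 1 TPM and were tested through METTL16 KO alone, so that the filter favoured their calls, and their fold changes depend on the pseudocount. Not all positive acute-phase genes were called. LRG1 was at 1.00, just under the limit, and C3, the central complement component, at 0.94. SERPINA1, which encodes alpha-1-antitrypsin, went from 3394.91 and 3434.37 to 3836.68 and 3846.67 TPM, a log2 fold change of 0.17. CFB, with -0.08 and an adjusted p of 0.16 from limma, and MBL2, with -0.17 and 0.12, were the members of the list below 0. ITIH4, ITIH3, C9 and APCS had means under 1 TPM.

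Of 11 negative acute-phase genes tested 3 rose and 0 fell, beside 7.70% and 3.77% of all genes, and the median on the log2 scale was 0.74. With either median-ratio scaling or quantile normalization 2 rose. With no fold threshold 8 were higher and 2 lower, beside 5999 and 3065 of the 11971 genes tested. GC, which encodes the vitamin D-binding protein, rose from 278.69 and 281.26 to 1975.80 and 1921.09 TPM (log2 fold change 2.80, adjusted p of 3.1e-13 from limma). F12 (coagulation factor XII) rose with 1.87 and PON1 (paraoxonase) with 1.07. ALB (albumin) was at 7436.67 and 7537.02 TPM in the sgNS libraries, against 10078.88 and 9882.36 TPM in those of METTL16 KO, or 0.41 on the log2 scale. TF (transferrin), at -0.43 with an adjusted p of 1.2e-07 from limma, was the lowest of the list. RBP4 had -0.12 with an adjusted p of 0.0021 from limma, and AHSG (fetuin-A) had -0.01 with 0.62.

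**Figure D3:**
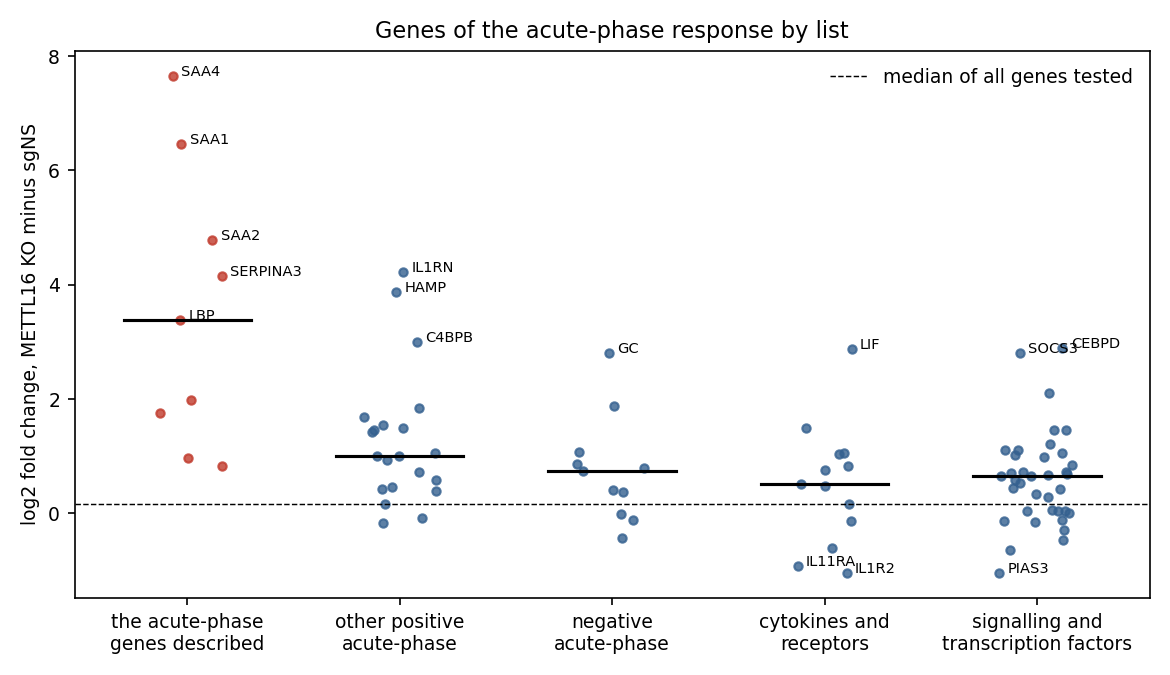
Log2 fold changes (METTL16 KO minus sgNS) of the genes tested in each list, with 1 point per gene, a black line at the list median and a dashed line at the median of all genes tested, 0.16. The medians are 3.39 for the 9 acute-phase genes described (1.87 for the 6 with a sgNS mean of at least 1 TPM, since SAA1, SAA2 and SAA4 were tested through METTL16 KO alone), 1.01 for the other positive genes, 0.74 for the negative genes, 0.51 for cytokines and receptors, and 0.65 for signalling proteins and transcription factors.

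Of the cytokines that induce acute-phase genes, IL6, IL1A, IL1B, IL11, OSM and IL18 had means under 1 TPM and were not tested. IL6 itself was listed at 0 in 3 libraries and at 0.07 TPM in METTL16 KO replicate 1. LIF, an IL-6 family cytokine, rose from 3.94 and 3.10 to 26.60 and 26.31 TPM (log2 fold change 2.88, standard error 0.11, adjusted p of 2.0e-09 from limma). CTF1 (cardiotrophin-1), of the same family, rose from 0.42 and 0.70 to 1.69 and 1.75 TPM, and was tested through METTL16 KO alone. CLCF1, the other family member tested, had 6.56 and 6.46 TPM in sgNS against 4.14 and 4.41 TPM, or -0.60 on the log2 scale, and was not called. Among receptors, OSMR (oncostatin M receptor) and IL1RAP (the accessory chain of the IL-1 receptor) rose with log2 fold changes of 1.06 and 1.04. IL1R2, the decoy receptor of IL-1, fell from 5.32 and 4.93 to 2.42 and 2.42 TPM (log2 fold change -1.05, adjusted p of 1.6e-05 from limma). It was not called without sgNS replicate 1, with a pseudocount of 1 or with a minimum mean of 5 TPM, which removes it. IL6ST, which encodes gp130, was at 0.76, and IL6R at -0.13 with an adjusted p of 0.21 from limma. IL11RA, the IL-11 receptor, was at -0.92 and not called. In all, 4 of 13 genes tested rose and 1 fell, beside the same shares of all genes, but with median-ratio scaling 2 rose and 2 fell, and with quantile normalization 1 rose and 2 fell.

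Among the signalling proteins and transcription factors that act on acute-phase genes, 10 of 37 rose and 1 fell, beside 7.70% and 3.77% of all genes tested, around a median of 0.65 on the log2 scale against 0.16 for all genes. CEBPD, a C/EBP factor induced in the response, rose from 47.47 and 48.84 to 357.42 and 364.37 TPM (log2 fold change 2.90, standard error 0.037, adjusted p of 2.0e-12 from limma). SOCS3, the feedback inhibitor of gp130 signalling, rose from 1.49 and 1.48 to 10.74 and 11.25 TPM, a log2 fold change of 2.81. STAT3 was at 35.24 and 35.81 TPM in the sgNS libraries, against 60.44 and 56.75 TPM in those of METTL16 KO, or 0.72 on the log2 scale that did not reach 2-fold. JAK2 rose with 1.10, and PIAS3, an inhibitor of STAT3, fell, with a log2 fold change of -1.04, a call that was lost with a pseudocount of 1.

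On the NF-kB side, the feedback inhibitors TNFAIP3 (A20), NFKBIA and NFKBIE rose with log2 fold changes of 2.10, 1.21 and 1.05. NFKBIZ, a nuclear co-regulator of NF-kB target genes, rose with 1.45. MYD88, the adaptor of IL-1 and Toll-like receptors, rose with 1.46, the kinase IRAK4 with 1.02 and the co-regulator BCL3 with 1.11. Not called were the kinase IRAK1 at -0.47, the kinase subunit IKBKG at -0.64 and the inhibitor NFKBIB at 0.01. The subunits RELA and NFKB1 were at 0.66 and 0.33. Of the hepatocyte and C/EBP factors, none of these 4 was called, with HNF4A at 0.70, CEBPB at 0.59, CEBPA at 0.04 and FOXA2 at 0.04. CEBPA and FOXA2 had adjusted p-values of 0.37 and 0.44 from limma. With either median-ratio scaling or quantile normalization, 6 of the 37 genes rose in place of 10.

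Genes that take up or sense the secreted proteins were mostly low in these cells. FPR2, a receptor for serum amyloid A, was listed at 0 in all 4 libraries, and CD163, the scavenger receptor for haptoglobin with hemoglobin, reached at most 0.04 TPM. TLR4 and LY96, which form the lipopolysaccharide receptor that LBP serves, had means under 1 TPM. Of the 10 genes 4 were tested, of which LRP2 (megalin, which takes up LCN2) rose from 0.42 and 0.43 to 2.29 and 2.19 TPM and 0 fell, beside 7.70% and 3.77% of all genes tested. LRP2 too was tested through METTL16 KO alone. SCARB1, a receptor for high-density lipoprotein and serum amyloid A, had 250.47 and 239.70 TPM in sgNS and 129.17 and 133.77 TPM in METTL16 KO, or -0.90 on the log2 scale that did not reach the 2-fold limit, and FCGR2A, an Fc receptor that binds C-reactive protein, had -0.74.

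Neighbouring genes were compared with the members, using the nearest tested protein-coding gene on each side in RefSeq (GRCh38.p14). The 14 neighbours that are not members ranged from -0.34 to 1.58 on the log2 scale around a median of 0.24, against 0.16 for all genes tested, and 2 of the 14 rose, against 7.70% of all genes. Not all of them are close, as the gaps ran from 2.17 kb for HPR beside HP to 2574 kb for ETV3 beside CRP. HPR also stands in the list of other positive acute-phase genes. HPS5, which lies 8.70 kb from SAA1, went from 24.40 and 23.81 to 39.54 and 37.08 TPM (log2 fold change 0.67), and SAAL1, 125 kb from SAA4 on the other side, had 0.06 with an adjusted p of 0.34 from limma. COL27A1, 10.6 kb from ORM1, had -0.34. The neighbours that rose were SERPINA5, 19.3 kb from SERPINA3 and a serpin like it, with 149.48 and 151.97 against 450.79 and 447.80 TPM (log2 fold change 1.58), and CIZ1, 12.6 kb from LCN2, with 1.02.

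**Figure D4:**
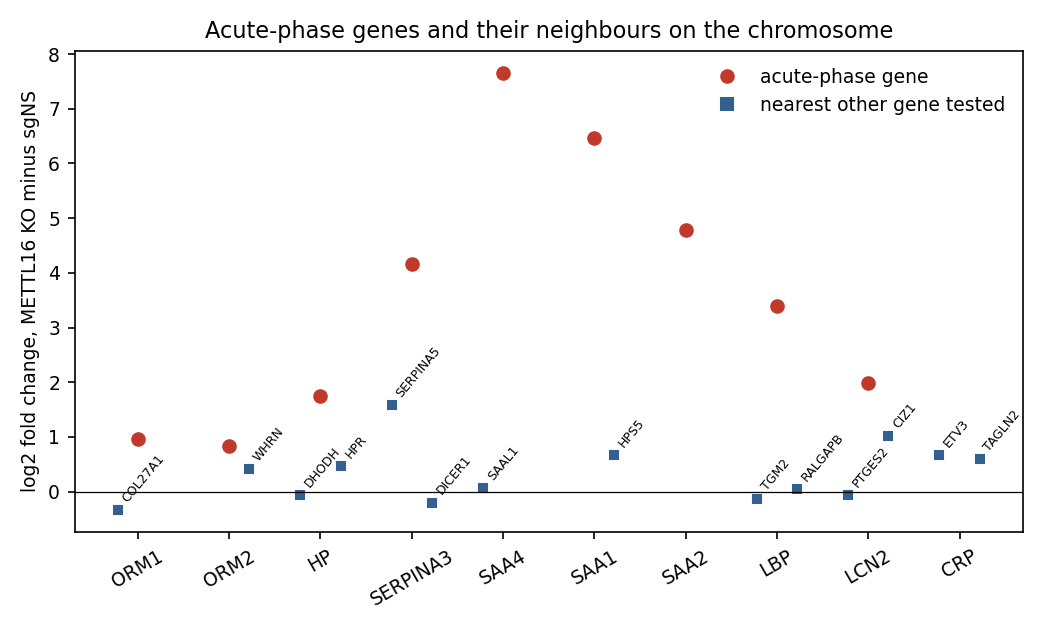
Log2 fold change (METTL16 KO minus sgNS) of each acute-phase gene tested (red circles) and of the nearest tested genes on either side that are not members (blue squares, left for lower and right for higher coordinates). CRP, which was not tested, has no circle. SERPINA5 at 1.58 and CIZ1 at 1.02 are the neighbours past 2-fold.

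The tested genes outside the list whose profile over the 4 libraries was most like the mean of SAA1, SAA2 and SAA4 were TM4SF20, MUC13, SLPI, GUCY2C and HABP2. Likeness was measured as the Euclidean distance between values of log2(TPM + 0.1) after subtracting each gene's mean, and was 0.32 for TM4SF20 and 0.82 to 1.22 for the others. SLPI, which encodes a secreted inhibitor of leukocyte proteases, was at 0.14 and 0.17 TPM in the sgNS libraries, against 11.43 and 10.97 TPM in those of METTL16 KO. HABP2, a plasma protease made by the liver, was at 1.06 and 1.43 against 46.63 and 45.81 TPM. With 4 libraries in 2 groups, such a distance mostly reflects the size of the difference between the groups.

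Markers of hepatocytes were high in every library, as the label of the cells says. All 10 were above 1 TPM, and their summed level was 15456 and 15461 TPM in sgNS and 28554 and 28114 TPM in METTL16 KO, of which AFP, the fetal liver protein, took 10386.51 and 10197.33 TPM in METTL16 KO. LCN2 and serum amyloid A are also made by myeloid cells. Of 10 leukocyte markers 5 had means under 1 TPM, among them PTPRC (CD45), ITGAM, CSF1R and CD3E, and PTPRC reached at most 0.48 TPM. The summed level of this list was 2153 and 2243 TPM in sgNS and 1001 and 1023 TPM in METTL16 KO, nearly all from LYZ, with a log2 fold change of -0.74, and S100A9, which fell, with -3.26. CD68 and S100A8 rose. None of the 10 was at 0 in all libraries. Fibroblast markers summed to 25.9 and 24.7 TPM in sgNS and 28.9 and 27.1 TPM in METTL16 KO, with 6 of 8 under 1 TPM. The 5 endothelial markers summed to 2.73 to 5.15 TPM, and KDR and TEK were at 0 throughout. The part of these other genes in the levels of the members was not tested.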

How the data were processed

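RNA-seq of 4 Huh7 libraries, 2 with a non-targeting guide and 2 with a METTL16 guide, was analysed. According to the methods, the authors used Cutadapt for trimming, STAR for mapping on GRCh38 and RSEM for the gene values. Versions and annotation are not given in the sources used here. The deposited values, rounded to 2 decimals, sum to 1000000 in each library and were treated as TPM, although the methods name RPKM. TPM keep no counts, so no counting error was given and no count test was run.

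From these, log2(TPM + 0.1) was computed for genes with a mean of at least 1 TPM, and the groups were compared in limma 3.58.1, under R 4.3.3 (lmFit, eBayes with a mean-variance trend, no block, two-sided, Benjamini-Hochberg adjustment over all genes tested). The fit was tested on simulated data, for which no result is given here. A call required an adjusted p under 0.05 together with a difference of 1 or more on the log2 scale, in either direction. With 2 libraries against 2, an exact permutation test of 1 gene cannot give a p under 0.33, so that p-values depend on the variance limma pools over genes. The members and the gene lists were chosen with earlier results of these data known. Named genes were all members, the genes of the lists (up to 5 largest rises and falls among calls, the most abundant, and others of each list as values), METTL16, the 5 genes most like the serum amyloid A profile and the nearest neighbours. Of the listed genes, 3 positive acute-phase genes and 1 cytokine gene were not analysed here. Loci and transcripts are from GENCODE release 44, promoters from RefSeq (GRCh38.p14), handled with Python 3.11.15, pandas 2.3.3 and numpy 2.4.6. Plots were made in matplotlib 3.10.9.

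Alternatives were pseudocounts of 1 and 0.01, no filter, a minimum mean of 5 TPM, median-ratio scaling, quantile normalization, the replicate number as a block, no trend, an unadjusted p under 0.01, no fold threshold, and each library left out in turn.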

Additional observations from a re-analysis of the deposited data

How the results depend on the processing

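Each of the 9 members tested kept a log2 fold change above 0 under all alternatives run for it (10, or 9 for SAA2 and LCN2, which a minimum mean of 5 TPM removes). The ranges were 0.81 to 0.99 for ORM1, 0.67 to 0.85 for ORM2, 1.59 to 1.76 for HP, 2.80 to 3.46 for LBP, 1.50 to 2.36 for LCN2, 4.0 to 4.22 for SERPINA3, 3.98 to 8.34 for SAA1, 2.55 to 5.65 for SAA2 and 5.60 to 8.28 for SAA4. The median over members tested, 3.39, was 2.55 and 3.46 with pseudocounts of 1 and 0.01, 2.69 with no filter, 3.23 with median-ratio scaling, 3.13 with quantile normalization, and 3.33 to 3.44 without 1 library.

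Of all genes, 922 were higher and 451 lower. No filter gave 1555 higher and a minimum mean of 5 TPM gave 575. Median-ratio scaling gave 672 higher and 657 lower, and quantile normalization 586 and 698. With no fold threshold the counts were 5999 and 3065, with 19 other positive, 8 negative, 9 cytokine and receptor, and 25 signalling genes higher, and 2 negative, 3 cytokine and receptor, and 5 signalling genes lower. Median-ratio scaling gave 2 cytokine and receptor genes higher and 2 lower, and quantile normalization 1 and 2. The count of lower cytokine and receptor genes, 1 as reported, was 0 with a pseudocount of 1 or a minimum mean of 5 TPM, and from 0 (without sgNS replicate 1) to 2 (without METTL16 KO replicate 2) when 1 library was left out. Either scaling gave 6 signalling genes higher in place of 10, and a pseudocount of 1 gave 0 lower in place of 1. Apart from filters and thresholds, which change the genes eligible, the cause was not tested.

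A replicate block gave 923 higher and 451 lower genes, and the counts of the other positive, negative, cytokine and receptor, and signalling genes were the same as without it (the other lists were not run). Deviations of same-numbered libraries had a correlation of -0.0445 across genes, so no shared deviation was seen. This value cannot show how the libraries were made, and the labels do not say whether replicates were transduced separately. The unknown depth limits the values near 0 most, those of serum amyloid A in sgNS and of CRP.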
